A study of Drosophila eugracilis and Drosophila pseudoobscura and Drosophila bifasciata with 4 samples.

Results

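Contig NW_024571840.1 of the D. eugracilis assembly ASM1815383v1 was examined in ovary RNA, because its transcripts were nearly free of introns. It was selected on that measured property, so its lack of spliced reads, its strand pattern and its level are given as a description with no test. The contig was divided into tiles of 50 nt on each strand up to the furthest aligned base, 13714, which gave 275 tiles per strand and 550 in all. It was 1 of 615 contigs that received reads. Its full length was not used here. The contig received 240635 of the 13099511 alignments of the polyA library and 331559 of the 6256158 alignments of the QuantSeq library.

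Both libraries were made from ovaries of wild type female D. eugracilis, given as strain SHL12 in the labels, on standard food at room temperature. The methods of the study name another stock for this species. The labels gave the age as 2 to 7 days in one field and as 3 to 7 days in another. Each library was a single one, so no difference between them could be set against a biological spread. For the polyA library, RNA was purified on oligo-dT beads and read from both ends with its strand kept. For the QuantSeq library, total RNA was primed with oligo-dT, so that reads lie close to the 3' end of a polyadenylated RNA. The remaining libraries of the series came from D. pseudoobscura and D. bifasciata and were not used here. Ovary marker genes were not examined, because the gene table used gave no contig for its genes.

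Mitochondrial genomes of flies are small circles with few bases between genes and no introns. They encode 13 proteins of the respiratory chain, 2 ribosomal RNAs and 22 tRNAs, and both strands carry genes. In animals long primary transcripts are cut at the tRNAs that lie between the other genes, and the released mRNAs and the large ribosomal RNA receive short poly(A) tails. Ovaries are rich in mitochondria, which are passed on to the egg. No gene annotation of the contig was used, so the names of genes given here are those of the place that a stretch takes in the textbook gene order of flies, and not an identification from sequence.

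Spliced alignments were nearly missing from the contig. In the polyA library 124 alignments on the contig were split by a gap, or 0.0515% (95% exact binomial interval 0.0429 to 0.0614), against 24.2% (24.14 to 24.18) in the rest of the library. In the QuantSeq library it was 276 alignments, or 0.0832% (0.0737 to 0.0937), against 4.09% (4.078 to 4.11) in the rest. Intervals here and elsewhere cover counting error only, and copies made by PCR and mates of a pair are not independent. Of 110 contigs with at least 1000 polyA alignments, the contig was the only one under a spliced share of 1%, or 0.909% of them. The others lay between 2.15% and 83.5%, with a median of 21.3%.

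The contig was densely read for its size. Among 414 contigs that reached at least 10000 nt it had the highest level per kb in both libraries, with 1339 CPM (counts per 1000000 genome-unique alignments) per kb in polyA and 3864 in QuantSeq, where the median contig had 0.0507 and 0.0655. It took 1.84% (1.83 to 1.844) of the polyA library and 5.3% (5.282 to 5.317) of the QuantSeq library. By CPM this was 18370 in polyA (18296 to 18443) and 52997 in QuantSeq (52817 to 53178), a polyA to QuantSeq ratio of 0.347 (0.3448 to 0.3484). On the log2 scale the ratio was -1.53, against a median of 0.16 over 183 contigs with enough reads (quartiles -0.22 and 0.67). Of these contigs, 11.5% had a polyA level at least 4-fold above QuantSeq and 4.92% at least 4-fold below, and the contig was not past either limit. The alignments on the contig were repetitive, with 15.1% of them distinct in polyA and 3.70% in QuantSeq, against 35.5% and 20.5% in the whole of each library. With identical alignments counted once, the contig had 7814 CPM in polyA and 9558 CPM in QuantSeq, a ratio of 0.818, so that the size of the difference between the libraries depended on how copies were counted.

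Reads came from both strands, in separate blocks. The plus strand carried 47.8% of the contig's alignments in polyA (47.62 to 48.02) and 44.2% in QuantSeq (44.03 to 44.37). A tile was called covered with a mean polyA depth of at least 100 and at least 5% of the depth of both strands, and 91 plus and 67 minus tiles passed. Only 3 tile positions were covered on both strands. The 155 positions covered on either strand made up 56.4% of the tile positions up to the furthest aligned base. Over these positions the weaker strand held 1.005% of the depth in polyA and 0.0520% in QuantSeq, so a mirror image of the coverage was seen on the opposite strand in polyA. Its source was not tested.

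**Figure D1:**
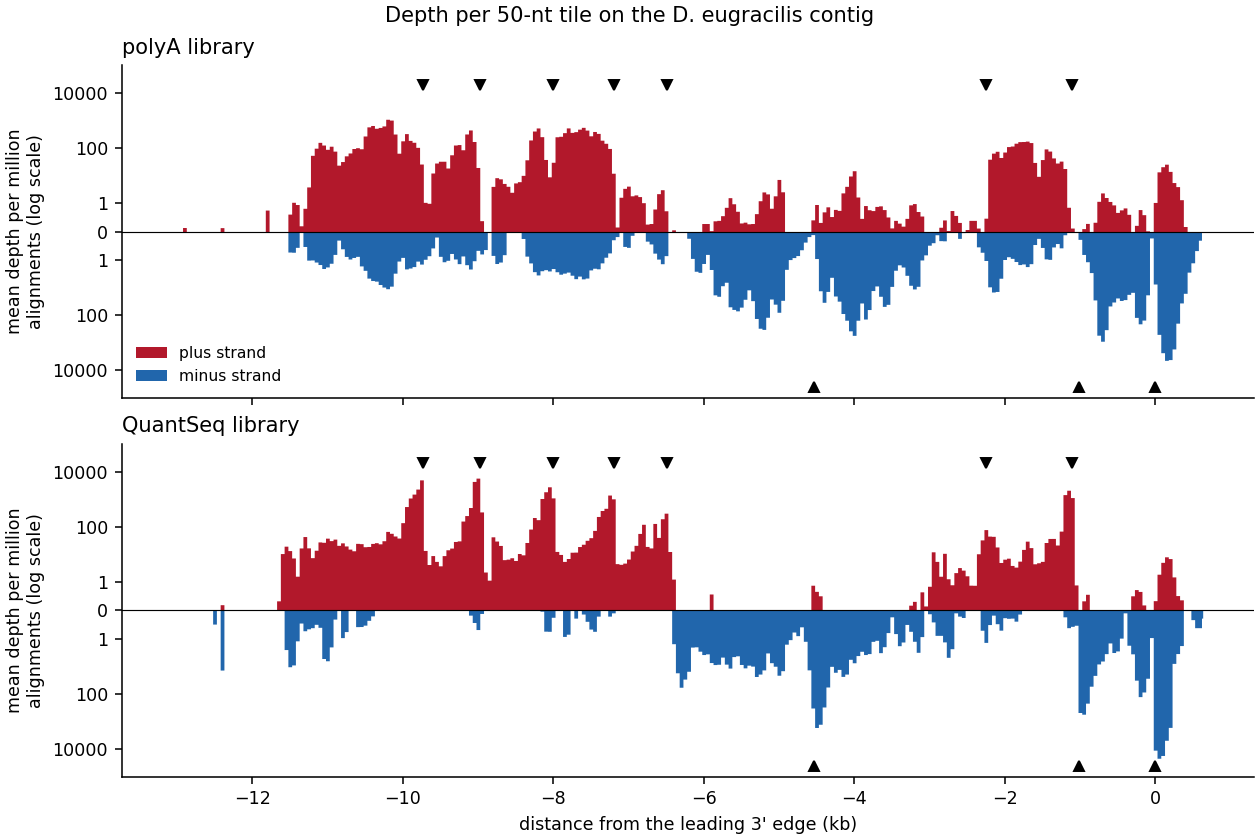
Mean depth of each 50-nt tile per 1000000 alignments of the library (vertical axis, logarithmic) against the distance from the leading 3' edge in kb (horizontal axis), for polyA above and QuantSeq below, with the plus strand upward in red and the minus strand downward in blue. Triangles mark the 10 leading 3' sites, and the order of strands along the contig is plus, minus, plus and minus, with the highest depth of both libraries on the minus strand at the right end.

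Covered tiles were joined into units, broken wherever the polyA depth changed at least 4-fold between the 50 nt on either side of a base. This gave 28 units of 100 to 750 nt (median 200), 12 on plus and 16 on minus, which held 237330 polyA alignments or 98.6% of those on the contig. Along the contig, 9 plus units lay between 1851 and 5850, 11 minus units between 7201 and 11000, 3 plus units between 10851 and 11900, and 5 minus units between 12301 and 13500, so the strand switched 3 times. The number of switches was 9 with a depth minimum of 10 and 7 when 1% of both strands was enough for a covered tile. The second and the third block overlapped because of a single minus unit at 10851 to 11000. It lay opposite a higher plus unit that held 82.6% of the depth there, and it had 232 polyA alignments against 1 in QuantSeq.

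The run of strands, plus, minus, plus and minus, was set beside the textbook order of the 15 protein and ribosomal RNA genes of fly mitochondria. Of the 15 ways to open the circle, 2 give this run of strands in the same orientation, those that begin at ND2 and at ND6, and a further 2 give it in the opposite orientation. Strand alone therefore did not fix the order. Opened at ND2, the textbook blocks hold 7, 3, 2 and 3 genes in turn, and opened at ND6 they hold 2, 3, 7 and 3. In the opposite orientation they hold 3, 2, 3 and 7 or 3, 7, 3 and 2. The ND2 opening was taken after the data were seen, because the first plus block of the contig, with 9 units, was longer than its second, with 3, and the choice was not tested. The 3' sites described below do not match the textbook genes one for one, since some places have none and others have several. The first plus block then takes the place of COX1, COX2, ATP8, ATP6 and COX3, and ND3 falls in the stretch without covered tiles after it. The first minus block takes that of ND5, ND4 and ND4L, and ND6 on plus falls in the stretch without covered tiles before the second plus block. That block takes the place of CYTB, followed by ND1 and the large ribosomal RNA (lrRNA) on minus. The aligned part ended within the place of lrRNA. The place of the small ribosomal RNA, which follows it, lay beyond the furthest aligned base, where no tiles were made. Whether the contig holds it was not examined. The place of ND2, upstream of COX1, was nearly empty, with 29 plus polyA alignments and 688 plus QuantSeq alignments between 1 and 1850.

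QuantSeq read ends were used to locate candidate polyadenylated 3' ends. Oligo-dT may also prime inside an RNA, and the paper marks a QuantSeq peak near the yb locus as a suspected case. The sequence of the contig was not used, so sites of that kind could not be told from polyadenylated ends. Ends within 20 nt of each other on the same strand were joined, and groups of at least 100 alignments were kept as sites. The contig had 24 sites, 13 on plus and 11 on minus, which held 99.6% of its QuantSeq alignments. Ends were joined in chains, so a site could be wide, and counts given for an end are those of its whole site. The site at 3347 spanned 1772 to 3416, with 73.9% of its alignments within 5 nt of the leading base. That at 5072 spanned 4425 to 5081, with 68.5%, and that at 10832 spanned 10820 to 11176, with 62.4%. At 4103 the share was 94.2%. The 10 leading sites alone held 324153 alignments or 97.8%, and 62.7% of all QuantSeq alignments on the contig ended at 1 of 10 single bases.

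The largest site lay on the minus strand at 13075, in the place of the 3' end of lrRNA, the RNA of the large mitochondrial ribosomal subunit. It had 166037 alignments, 50.1% of the contig's QuantSeq reads, and 60.8% of them (60.55 to 61.02) ended at that base. On the plus strand, the end at 3347 in the place of COX1, the catalytic subunit of cytochrome c oxidase, had 45765 alignments with 68.1% at the leading base. The end at 4103 (place of COX2) had 39369 with 85.5% at the leading base, the sharpest of the 10. The end at 5072 (place of ATP8 and ATP6, subunits of ATP synthase that are read from overlapping frames of the same mRNA) had 23764 with 40.3% at the leading base, the least sharp. The end at 5880 (place of COX3) had 15091 alignments and that at 11977 (place of CYTB, cytochrome b of complex III) had 14724.

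Smaller leading sites were found at 8541 on minus with 11004 alignments (place of ND4 and ND4L), at 12063 on minus with 4346 (place of ND1), at 6587 on plus with 2757 and at 10832 on plus with 1296 (place of ND6). The ND genes encode subunits of complex I. The end in the place of ND3, at 6305 on plus, had 1054, and that in the place of ND5, at 6740 on minus, had 504. The 2 sites at 6452 and 6587 follow ND3 in a stretch where the textbook order holds a cluster of tRNA genes and no mRNA end.

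Ends of opposite strands faced each other at both places where a plus block met a minus block. The edge at 11977 on plus and that at 12063 on minus were separated by 85 nt. The edges at 6587 on plus and 6740 on minus were separated by 152 nt. In the stretch between 11901 and 12250, which holds the facing ends of the CYTB and ND1 places, polyA had 7 plus and 38 minus alignments and no tile with a mean depth over 38.3, whereas QuantSeq had 13791 plus and 4302 minus alignments.

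PolyA coverage changed in sharp steps at several of these ends. There were 38 steps of at least 4-fold whose higher side had a mean depth of at least 100, 17 on plus and 21 on minus, of which 20 were rises and 18 falls in the direction of the RNA. Their median size was 10.5-fold, and 35 lay at the border of a unit, which follows from the rule for units. A 3' site lay within 50 nt of 8 of the 18 falls, but of only 2 of the 20 rises. Both sets come from different libraries, and no chance level was computed for them.

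The largest fall was next to the leading site. Mean polyA depth on minus was 1954 in the 50 nt before the border of 13081 and 13080 and 2.54 in the 50 nt after it, at least 651-fold lower when depths under 3 were set to 3, and the border lay 5 nt from the QuantSeq edge. On plus, depth fell at 4099, 4 nt from the QuantSeq edge at 4103, with 286 before and 2.64 after. Another border lay at 5873, 7 nt from the edge at 5880, with 818 before and 2.24 after. A further border lay at 3331, 16 nt from the edge at 3347, with 821 before and 17.5 after. In each of these 4 cases the border of the polyA fall lay on the upstream side of the QuantSeq edge.

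Few polyA alignments ran across the leading ends. Shares were taken among unspliced alignments that covered the base 10 nt upstream of the edge. Such an alignment was counted as passing through when it also reached at least 10 nt beyond the edge. At 13075 it was 0 of 203 alignments that covered this upstream base (exact 95% upper bound 1.80%), at 4103 0 of 46 (7.71%) and at 5880 0 of 50 (7.11%). At 3347 it was 11 of 27 (40.7%, 22.4 to 61.2), and at 5072 it was 10 of 34 (29.4%, 15.1 to 47.5). These 2 shares rested on few alignments, since polyA depth was low at the very end in all 5 cases. By contrast, at the minor minus site at 12839 with 874 QuantSeq alignments, inside the place of ND1, 1480 of 2610 polyA alignments passed through (56.7%, 54.8 to 58.6).

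**Figure D2:**
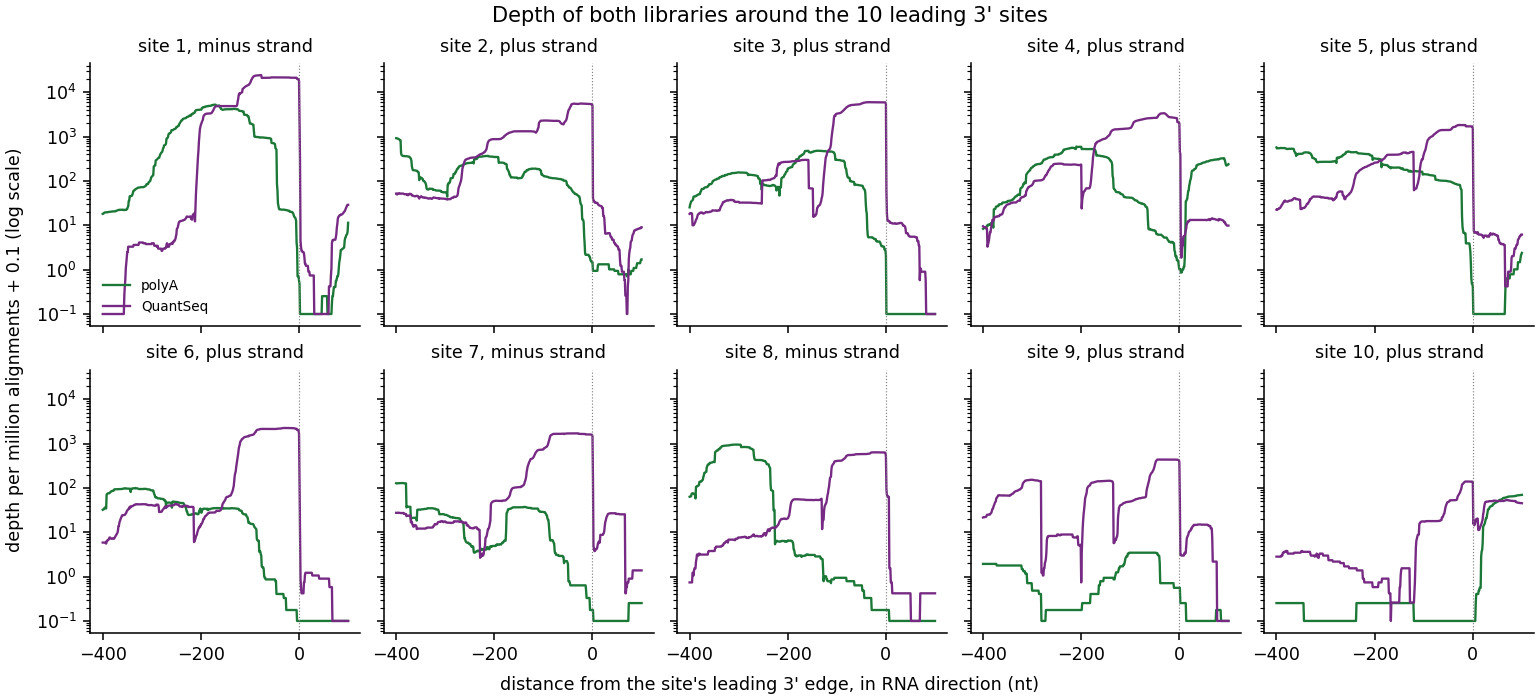
Depth of polyA (green) and QuantSeq (purple) per 1000000 alignments of each library, plus 0.1, on a logarithmic axis, against the distance in nt from the leading 3' edge in the direction of the RNA, for the 10 leading sites in order of size. QuantSeq depth drops at the edge in all 10 panels, and polyA depth declines before the edge at sites 1 to 8. Shortly after the edge, polyA depth rises at sites 4 and 10, the places of ATP6 and ND6.

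The stretch beyond 6 of the ends was set beside the neighbouring genes of the textbook order. Between ATP6 and COX3 and between ND6 and CYTB the textbook order has 0 tRNA genes. At these places the polyA depth rose 12 nt after the edge at 5072 and 18 nt after the edge at 10832, and these were the 2 rises within 50 nt of a site. Mean depth in the 50 nt after 5072 was 1706, against 58.2 in the 50 nt before it. After 10832 it was 270, against 0 before. Between COX1 and COX2 and between ND1 and lrRNA the textbook has 1 tRNA gene, and the next rise on the strand came 111 nt after the edge at 3347 and 95 nt after the edge at 13075. In the 50 nt after 13075 the mean polyA depth was 0.26, against 841 before. After 4103, where the textbook has 2 tRNA genes before ATP8, and after 5880, where it has 1 before ND3, depth was 0 in the 50 nt that followed, and within 150 nt no rise came that reached the depth of 100 demanded of a step. Lower polyA coverage did begin there. After 4103 the tile at 4251 to 4300 had a mean depth of 54.4, and after 5880 the tiles at 5951 to 6000 and at 6001 to 6050 had 21.3 and 46.0, following 0.6 at 5901 to 5950. These are 6 borders, and they were compared with the tRNA genes once the steps were known. The end at 8541 on minus, between the places of ND4 and ND5, was not among them. Mean polyA depth there was 5.82 in the 50 nt before the edge and 0.02 in the 50 nt after it. The next rise on minus came only at the border of 8130 and 8129.

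Levels were compared between the stretches that end at the 14 sites with at least 500 QuantSeq alignments. The limit was chosen with the site counts known, and it kept the sites at 6740 (504 alignments) and 6452 (874) and left out those at 3885 (440) and 4396 (383). The 14 intervals held 99.0% of the contig's polyA and 99.9% of its QuantSeq alignments. PolyA levels are given per kb, since a long RNA gives more fragments, and QuantSeq levels as CPM, since an RNA gives reads from its end. Intervals may hold parts that are not transcribed, which lowers the level per kb.

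The lrRNA place had the highest level in both libraries. In polyA it had 10042 CPM per kb (9974 to 10110) and 34.98% of the contig's alignments, and in QuantSeq 26543 CPM (26415 to 26671) and 50.1%. Without this interval the contig had 12020 CPM in polyA and 27176 CPM in QuantSeq. Depth there was concentrated in 1 unit, between 13101 and 13350, with 25433 CPM per kb in polyA and 106155 in QuantSeq. The highest polyA tile of the contig, at 13201 to 13250, had a mean depth of 57936 in polyA and 30180 in QuantSeq, whereas the highest QuantSeq tile, 100 nt nearer to the end at 13101 to 13150, had 6694 in polyA and 134233 in QuantSeq.

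Among the places of mRNAs, polyA levels spanned a wide range. COX3 had 2997 CPM per kb (2965 to 3031), ND1 1368 (1346 to 1391), COX1 1164 (1153 to 1174), COX2 1062 (1042 to 1082), ATP8 and ATP6 together 772 (757 to 788) and CYTB 702 (688 to 715). Counting intervals of neighbours in this order did not overlap. The ND1 values of both libraries cover 12063 to 12838 only. Of the 13910 polyA alignments of this interval, 12710 lay in the unit at 12301 to 12450. The rank of ND1 therefore depends on that unit. The stretch from 12839 to 13074, which holds the upstream part of the ND1 place, had 938 CPM per kb in polyA. The COX1 interval began at the first base of the contig and so held the empty stretch before it. Its units at 1851 to 2250, 2251 to 3000 and 3001 to 3350 had 1102, 3902 and 1500 CPM per kb. The rank of COX1 in this order therefore depends on the length given to it. The other complex I subunits with their own interval, ND1 apart, were lower, with 452 (444 to 459) for ND4 with ND4L, 404 (396 to 412) for ND5 and 18.5 (15.1 to 22.4) for ND3.

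QuantSeq ordered the mRNA places in another way. COX1 had 7344 CPM (7277 to 7411), COX2 6364 (6302 to 6427), ATP8 and ATP6 3865 (3816 to 3914), CYTB 2465 (2427 to 2505) and COX3 2405 (2367 to 2444), and the intervals of the last pair overlapped. ND4 with ND4L had 1849 (1815 to 1883), ND1 710 (689 to 731), ND5 291 (277 to 304), ND3 183 (172 to 194) and ND6 179 (169 to 190). The intervals of ND3 and ND6 overlapped. The ND5 value counted 1818 alignments, whereas the site at 6740 held 504, or 80.6 CPM. The sites of ND3 and ND6 had 168.5 and 207.2 CPM, so by site counts ND5 was below both. The places of cytochrome c oxidase, ATP synthase and cytochrome b were thus above those complex I places that had an interval in QuantSeq. The lowest of the first set had 2405 CPM and the highest of the second 1849 CPM. ND2, also of complex I, had no interval, and its nearly empty place was counted within the COX1 interval. In polyA ND1 broke this order, with most of its alignments in the unit at 12301 to 12450.

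The ratio of the libraries therefore varied between places. In total CPM of an interval, polyA was under QuantSeq in 10 of 14 intervals and over it in 4, and 7 were at least 4-fold below and 0 at least 4-fold above. The ratio was 0.242 (0.240 to 0.244) for lrRNA, 0.530 (0.524 to 0.537) for COX1, 0.126 (0.124 to 0.129) for COX2, 0.194 (0.189 to 0.198) for ATP8 and ATP6, and 0.326 (0.318 to 0.334) for CYTB. It was near 1 for COX3, at 1.01 (0.988 to 1.03). It was over 1 for ND5, at 2.51 (2.38 to 2.64), and for the ND1 interval, at 1.496 (1.45 to 1.55). For the stretch from 12839 to 13074, which holds the upstream part of the ND1 place, it was 1.59 (1.47 to 1.72). These ratios use total polyA CPM, which grows with the length of an interval. That of ND5 had 1801 nt and that of COX3 808 nt, so the ratios do not rank the places. The ND5 ratio used all 1818 QuantSeq alignments of its interval, whereas its site held 504. The smallest ratios were those of ND3, with 0.0430 (0.0348 to 0.0527), and of the 2 stretches that follow it, where polyA had 2 alignments against 929 in QuantSeq and 44 against 2762.

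**Figure D3:**
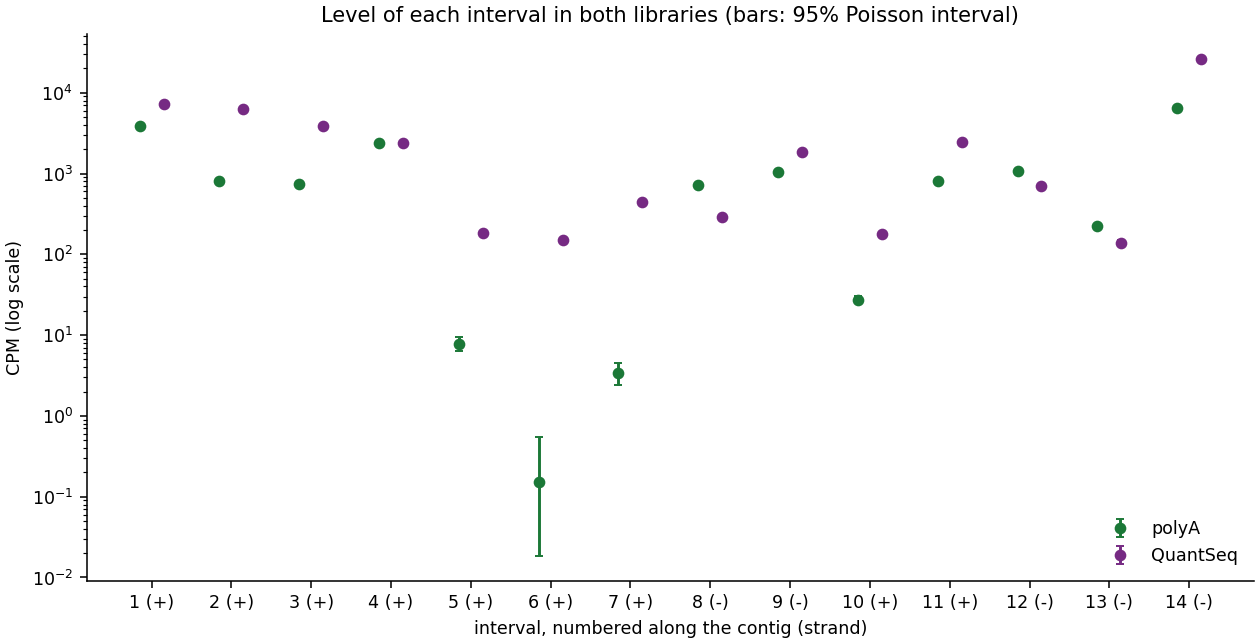
CPM of each interval (logarithmic axis) in polyA (green, left) and QuantSeq (purple, right) with exact 95% Poisson intervals, for the 14 intervals in the order of the contig with their strand. Intervals 1 to 5 take the places of COX1, COX2, ATP8 and ATP6, COX3 and ND3, intervals 8 to 12 those of ND5, ND4 and ND4L, ND6, CYTB and ND1, and interval 14 that of lrRNA. Interval 13 holds the upstream part of the ND1 place. PolyA lies under QuantSeq in 10 intervals and most clearly in intervals 5 to 7.

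The place of ND6 was hardly covered in polyA, whereas QuantSeq had reads at its 3' end. Its interval had 361 polyA alignments on plus, but 13555 lay on the opposite strand, so that plus held 2.59% of the polyA reads of both strands, and the interval also spans the ND4 place. Between 9951 and 10850, the part free of covered tiles, polyA had 22 plus alignments and QuantSeq 1109. The ND6 place was thus seen through the 3' site at its end, which the polyA library did not cover at this depth. The place of ND4L and ND4 had no 3' site of its own between them, and its QuantSeq reads ended at 8541, while a single small site, with 368 alignments at 8771, lay upstream within it.

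Within a stretch, each library favoured another part. The 336 of 550 tiles with a depth of at least 10 in either library were compared after scaling to the library totals, and the same was done for 248045 tiles and strands of all contigs. On the contig 129 tiles (38.4%) had a polyA depth at least 4-fold above QuantSeq, against 49.2% of all tiles, and 74 (22.02%) had a depth at least 4-fold below, against 13.4% of all tiles. The median log2 ratio was 1.30 on the contig and 1.97 over all tiles. Of the 129 tiles above, 42 lay opposite a covered tile, on the mirror strand.

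The ratio was then set against the distance to the next 3' site downstream on the same strand. Since the sites were called from QuantSeq, this is a description of the 2 methods on the same RNA. Among the compared tiles with such a site of at least 500 alignments, the 47 that lay within 150 nt of it had a median log2 ratio of -6.28 (quartiles -8.09 and -4.07), with 0 at least 4-fold above and 41 at least 4-fold below. The 31 tiles at 150 to 300 nt had a median of 0.19 (quartiles -1.04 and 0.71), with 4 above and 5 below. The 59 tiles at 300 to 600 nt had 2.36 (quartiles 0.40 and 4.36), with 31 above and 6 below, and the 126 farther away had 1.92 (quartiles 0.46 and 3.48), with 61 above and 18 below. These sets include tiles that were not covered. Among covered tiles alone, the 23 within 150 nt had a median of -4.45, with 17 at least 4-fold below. The 44 at 300 to 600 nt had 3.13 and the 69 farther away 3.05, with 0 below in both sets.

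**Figure D4:**
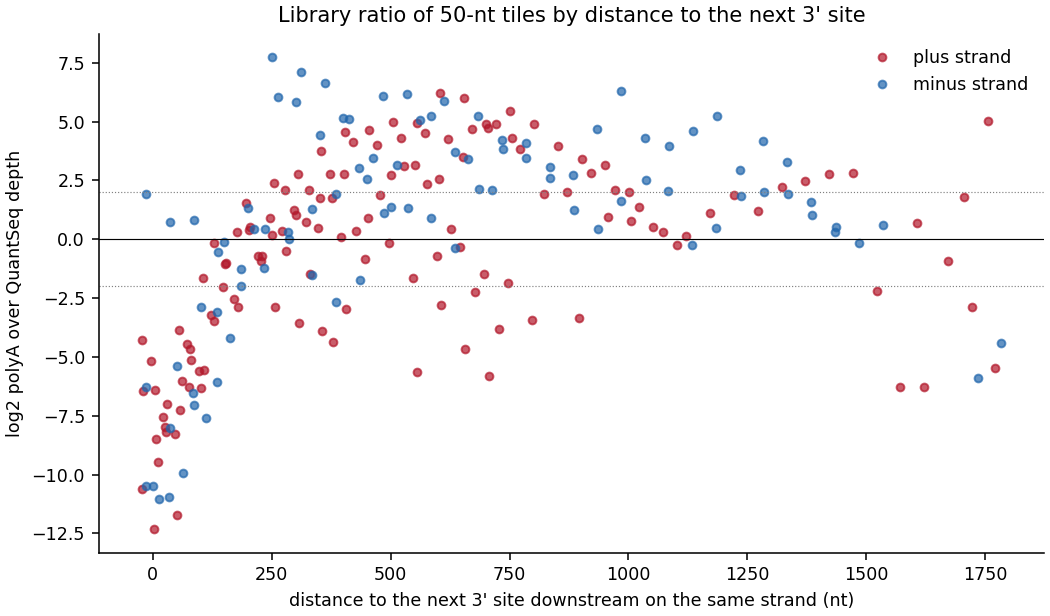
Log2 ratio of polyA over QuantSeq depth of each 50-nt tile (vertical axis) against the distance in nt to the next 3' site downstream on its strand (horizontal axis, up to 1800 nt), with plus tiles in red, minus tiles in blue and dotted lines at 4-fold. Tiles close to a site are low, and those more than 300 nt away lie mostly above 0, with a group of plus tiles below the lower line.

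The extreme tiles showed both sides of this. At 11951 to 12000 on plus, at the end of the CYTB place, polyA had a mean depth of 0.44 where QuantSeq had 7343. At 12051 to 12100 on minus, at the end of the ND1 place, polyA had 1.2 and QuantSeq 3006. At the other extreme, the tile at 13301 to 13350 on minus, in the 5' part of the covered lrRNA place, had 22452 in polyA and 50.3 in QuantSeq. The tile at 12351 to 12400 on minus, in the ND1 place, had 11828 in polyA and 41.2 in QuantSeq, and that at 5251 to 5300 on plus, in the COX3 place, had 7150 in polyA and 46.0 in QuantSeq. The tiles were picked by their size once the data were known.

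PolyA depth was uneven inside the places themselves. In the ND1 place, the unit at 12301 to 12450 had 6468 CPM per kb (6356 to 6582), against 228 (215 to 242) in the adjoining unit at 12451 to 12800, whereas QuantSeq had 57.5 and 20.1 CPM per kb. In the ND4 place, the unit at 8901 to 9150 had 2864 CPM per kb in polyA and 140 in QuantSeq, and the unit at 9301 to 9550 had 265 in polyA and 20.5 in QuantSeq. In the ATP8 and ATP6 place, 3539 CPM per kb of polyA lay in the unit at 4751 to 4950 and 113 in the unit before it, at 4651 to 4750. Units of the same place thus differed by more than 10-fold in polyA.

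Stretches of at least 200 nt without a covered tile lay between the blocks and inside them. The longest, 1 to 1850, has been given above. The next, 5901 to 7200, takes the place of ND3, the tRNA cluster and the 3' part of ND5, and it had 153 plus and 119 minus alignments in polyA against 4912 and 826 in QuantSeq. Between 8151 and 8600, which holds the end of the ND4 place, polyA had 46 minus alignments and QuantSeq 7877. At 13501 to 13714, the right end of the aligned part, polyA had 21 minus alignments and QuantSeq 0. Since only reads with a single place in the genome were in the files, few reads in a stretch do not show that its RNA was absent.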

How the data were processed

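Polyadenylated RNA and total RNA of D. eugracilis ovaries were sequenced in 1 library each. The authors removed adapters (and poly-A stretches from QuantSeq reads), used the FASTX-Toolkit for quality filtering and aligned the reads to ASM1815383v1 with STAR 2.7.3a, and the submitters' processing notes also name SAMtools 1.10 and bedtools 2.28.0. The deposited files list genome-unique alignments, 1 line each, with a mapping score that is 255 in every line and was not used as a level. Reads with further places in the genome are not in them.

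Alignments were counted in Python 3.11.15 with numpy 2.4.6, scipy 1.17.1 and pandas 2.3.3, each mate as 1, and given to a stretch by their midpoint. CPM used all alignments of a library. An alignment of more than 1 block was called spliced. QuantSeq 3' edges were the end on plus and the start on minus. Depths under 3 were set to 3 in fold changes, a ratio of alignment counts carries an exact conditional 95% interval, a CPM an exact Poisson one and a share an exact binomial one. Site edges, units and tiles were named by size, as the 10 leading sites and the extreme tiles, and other positions after their values were seen. The contig, the gene order and the rules were chosen with earlier results of these data known. The calculations were tested on simulated data. With 1 library per kind, no test between them was possible.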

Additional observations from a re-analysis of the deposited data

How the results depend on the processing

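Of 55 alternatives, 31 left the result within counting error or, for counts, within 1.5-fold, and 24 moved it. Counting identical alignments once gave 7814 CPM in polyA and 9558 CPM in QuantSeq, a ratio of 0.818, spliced shares of 0.181% in polyA and 1.53% in QuantSeq, 16 units and 50 tiles with polyA at least 4-fold above. Counting each read pair once gave a spliced share of 0.0681% in polyA. Without the interval of the leading 3' site, tried once the leading site was known, polyA had 12020 CPM and QuantSeq 27176 CPM, with a ratio of 0.442. A depth minimum of 1000 gave 81 covered tiles and 13 units, and a minimum of 10 gave 9 strand switches. Requiring 1% of both strands gave 7 switches. A unit length of 200 nt gave 16 units. A step of 8-fold gave 18 units and 23 steps. Keeping sites of at least 10 alignments gave 53, of at least 1000 gave 11, and joining ends within 50 nt gave 15. A limit of 8-fold left 78 tiles with polyA above, and a tile depth minimum of 100 left 47 with polyA below. At a 2-fold limit 13.1% of contigs lay below QuantSeq. The number of strand switches therefore depended on the depth and strand share demanded of a tile. No paired analysis was possible because each kind of library was made once. The depth of 1 library limits what low stretches can show, and the contig's length and its sequence were not used here.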

Other observations

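Among the QuantSeq alignments on the contig, 247 on minus had their 3' edge between 650 and 700, far from any covered tile, and all 247 were split by a gap. For 238 of them the gap led to within 5 nt of a 3' site edge on minus. The most frequent gaps ran between base 684 and bases 13074 (87 alignments), 13076 (54) and 13075 (45), next to the leading site in the lrRNA place. These alignments made up most of the 276 gapped QuantSeq alignments, and the site called at 667 held no others. In polyA 124 gapped alignments fell into 26 distinct gaps, none of which began in that window, and the most frequent, 1273 to 2767 on plus, had 31 alignments.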
